A study of Homo sapiens with 6 samples.

Results

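Of the 12760 genes in the deposited table, 58 were followed here that encode the machinery by which the endoplasmic reticulum (ER) takes in, folds, glycosylates, inspects and discards secretory proteins, together with the sensors of the unfolded protein response (UPR). They were chosen by name, with earlier results of these data known: 10 chaperones and cochaperones, 3 lectin chaperones and glycoprotein quality control genes, 6 disulfide isomerases, 12 translocon and signal recognition genes, 5 signal peptidase subunits, 5 oligosaccharyltransferase subunits, 9 genes of ER-associated degradation, 5 stress sensors and related membrane proteins, and 3 genes of ER to Golgi traffic. All 58 were in the table, and all 58 passed the filter on low values, a mean of at least 1 FPKM (fragments counted on a gene, per kilobase of its length and relative to library size). The cells were MM.1S, a line derived from human multiple myeloma. The resistant group, LenR, was grown in lenalidomide, which makes the cereblon ubiquitin ligase degrade new substrates, from 10 nM with a 10-fold rise every month for 3 months. The control group, WT, was kept in the solvent DMSO over that time, and each group had 3 libraries. The labels give WT as the genotype of all 6 samples, name no engineered allele, and call the replicates biological. They do not say whether the resistant samples came from separate selections or whether drug was present at harvest, so present exposure and selection cannot be told apart, and p-values measure the spread between these libraries. The series title ties the comparison to protein lactylation in lenalidomide resistance.

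Most secreted and membrane proteins enter the ER through the SEC61 channel, lose their signal peptide, receive N-linked glycans and fold with the help of HSPA5 (BiP), lectin chaperones and disulfide isomerases. Chains that do not fold are drawn back to the cytosol and degraded, while the sensors IRE1 (ERN1), ATF6 and PERK (EIF2AK3) adjust the supply of chaperones and of degradation factors to the load. Plasma cells, and the myeloma cells that arise from them, make immunoglobulin in bulk and depend on this machinery.

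Libraries held between 14499987 and 17387733 reads, worked out from steps in the FPKM values. On the first principal component (58.1% of the variance of all tested genes) the groups separated. On the second (26.8%) WT replicate 3 (14) and LenR replicate 2 (13.7) stood apart from the other libraries, on the same side. LenR replicate 3 lay furthest on the other side (-12.7). The counts of called genes are given with and without WT replicate 3 and LenR replicate 2 below. WT replicates 1 and 2 were closer to each other than any other pair of a group, with a median chi-square of 1.17 times that of sampling noise against 3.89 for the next closest pair. All 8 plasma cell markers were in the table, with a summed level of 3340 to 3904 FPKM in WT and 4058 to 4871 FPKM in LenR. JCHAIN was the largest part of each sum (1871 to 2423 FPKM in WT, 2198 to 3044 FPKM in LenR; limma adjusted p = 0.437). SDC1, CD38, IRF4, PRDM1 and XBP1 were higher in LenR at an adjusted p under 0.05, and TNFRSF17, SLAMF7 and JCHAIN did not reach it. None of the 4 B cell or 6 myeloid markers was in the table, and the 2 of 6 T and NK cell markers summed to at most 4.11 FPKM, the 1 of 3 erythroid markers to at most 8.31 FPKM and the 1 of 5 epithelial and stromal markers to at most 0.43 FPKM.

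The 58 genes were among the more strongly expressed genes of these cells: 57 had a mean above the table's median of 9.85 FPKM, 28 lay above 100 FPKM, 29 between 10 and 100 FPKM, and 1 (DERL3) under 10 FPKM. Together they held 2.11% to 2.21% of all FPKM in each library, with no separation of the groups. Between LenR and WT, 2 of the 58 rose, the ER-associated degradation adaptor SEL1L and the membrane-bound transcription factor CREB3L2, and none fell (limma, adjusted p under 0.05). Among all 11276 genes tested, 8.57% were called higher and 6.57% lower by the same rule, so the 58 genes held fewer calls (3.4%) than the table as a whole. At an unadjusted p under 0.05 the limma fit listed 7 of the 58 as higher and 2 as lower, against 1788 and 1448 of the 11276 genes tested. Both shares of the 58 lay below those of the table. The median log2 fold change of the 58, on the log2(FPKM + 1) scale used for each fold change here, was -0.025, against -0.002 for all genes tested. In 48 of the 58 (82.8%) the log2 fold change was within 0.2 of 0, against 70.1% of all genes, and in 51 the 95% interval lay within 1.5-fold in either direction. In bulk RNA, a lower level may mean fewer cells with the transcript or less of it per cell, and these cannot be told apart.

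**Figure D1:**
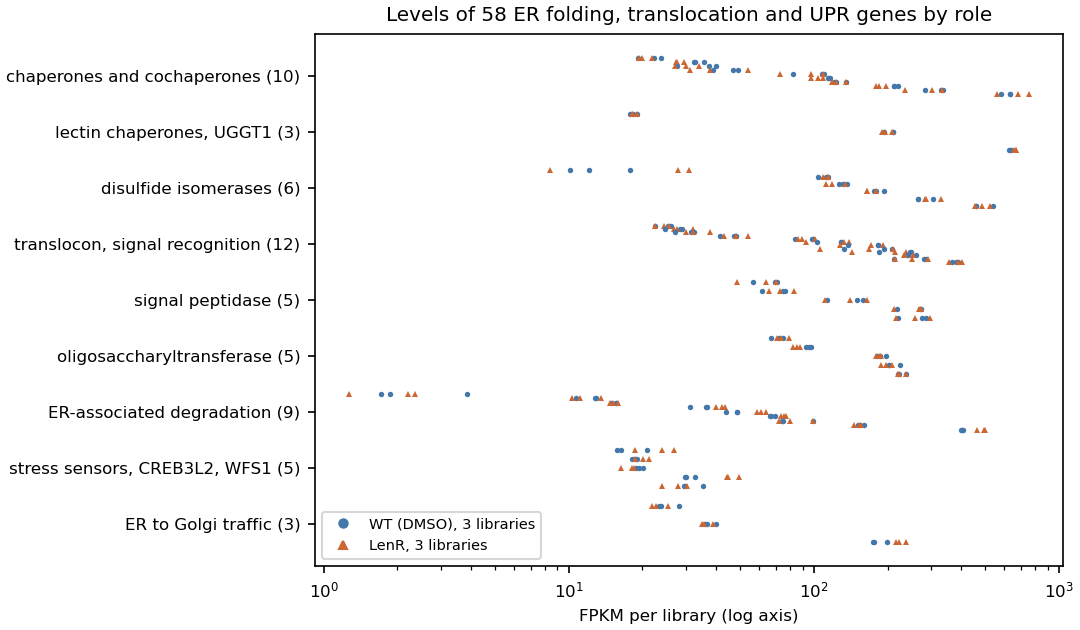
FPKM of the 58 genes in each library (log axis), with 1 line of symbols per gene, grouped by role with the number of genes in brackets; circles are the 3 WT libraries and triangles the 3 LenR libraries. All genes but DERL3 had a mean over 10 FPKM, and for most the symbols of both groups lie on top of each other.

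**Figure D2:**
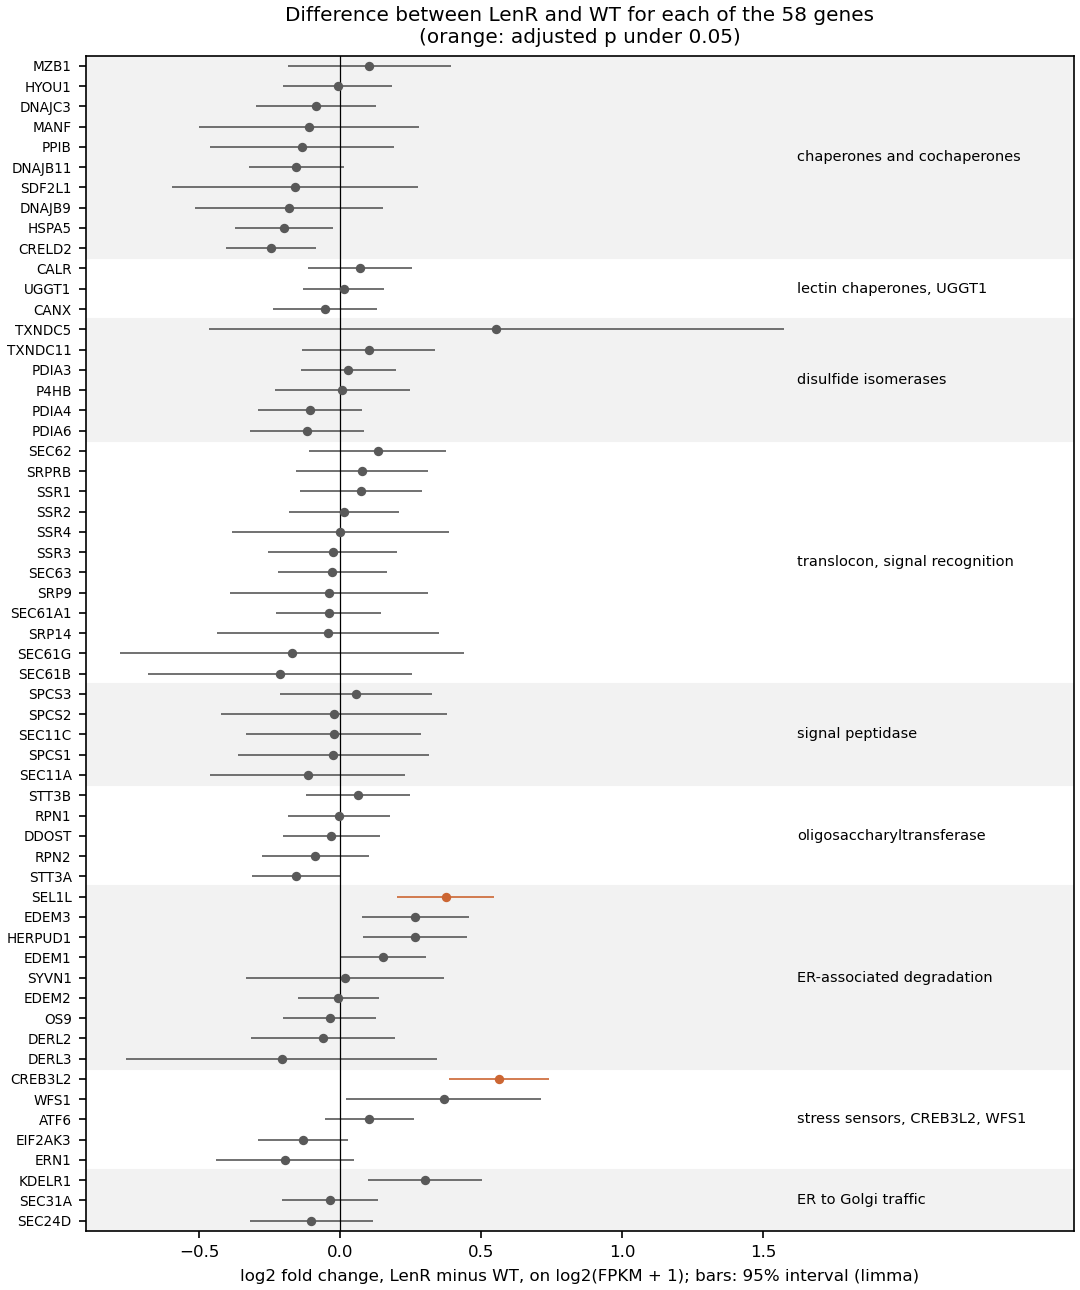
Log2 fold change of LenR minus WT on log2(FPKM + 1) for each of the 58 genes, by role, with 95% intervals from limma (3 libraries a group). SEL1L (0.37) and CREB3L2 (0.56), in orange, had an adjusted p under 0.05, and TXNDC5 had the widest interval (-0.47 to 1.57).

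Short sequences in the promoters of UPR target genes recruit the factors that the sensors release. The ER stress response element ERSE (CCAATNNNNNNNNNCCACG), bound by NF-Y and ATF6 or XBP1, the related ERSE-II (ATTGGNCCACG), the UPR element UPRE (TGACGTGG) and the C/EBP-ATF response element CARE (TGATGNAA), a site for ATF4, were searched on both strands from 250 bases before to 50 bases after each start site in RefSeq (GRCh38.p14). ERSE and ERSE-II share the letters CCACG, which the other strand of UPRE also holds, so the matches can overlap. A window was at hand for 52 of the 58 genes. ERSE was found in 5 of them (9.62%; HSPA5, CRELD2, CALR, CANX and PDIA6) against 0.0916% of all 27305 genes with a window, and ERSE-II in 3 (5.77%; HYOU1, SDF2L1 and HERPUD1) against 0.0696%. UPRE was found in 6 (11.5%; HYOU1, TXNDC5, TXNDC11, SEC62, SSR3 and SSR4) against 0.927%, and CARE in 3 (5.77%; SRPRB, HERPUD1 and CREB3L2) against 4.46%. Per window, of which some genes have several, the shares over all 35116 windows were 0.0769%, 0.0541%, 0.729% and 3.62% in the same order. These are matches of letters and not measured binding. The elements are known from promoters of UPR target genes, and the 58 genes were chosen by name for such roles. The shares are therefore a description and not a test of enrichment.

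The upstream bases of HSPA5 (chr9:125241344-125241593, minus strand) and HERPUD1 (chr16:56931892-56932047, plus strand) are shown as the chaperone and the degradation factor with these elements that lay on opposite sides of 0, and those of SEL1L (chr14:81533862-81534103, minus strand) and CREB3L2 (chr7:138002087-138002336, minus strand, 1 of its start sites) as the genes that rose. Each run is written 5′ to 3′ on the gene's strand. Capitals mark ERSE in HSPA5, and CARE followed by ERSE-II in HERPUD1. SEL1L and CREB3L2 held no exact match in the stretch shown, and the CARE of CREB3L2 lay after another of its start sites. Only exact matches to these letters were searched, so variants that differ by a base or more are not marked in any run.
HSPA5: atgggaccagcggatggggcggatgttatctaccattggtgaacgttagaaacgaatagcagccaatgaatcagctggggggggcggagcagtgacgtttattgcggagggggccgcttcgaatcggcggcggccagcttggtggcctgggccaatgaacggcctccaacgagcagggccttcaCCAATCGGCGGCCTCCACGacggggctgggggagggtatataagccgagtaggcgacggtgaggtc
HERPUD1: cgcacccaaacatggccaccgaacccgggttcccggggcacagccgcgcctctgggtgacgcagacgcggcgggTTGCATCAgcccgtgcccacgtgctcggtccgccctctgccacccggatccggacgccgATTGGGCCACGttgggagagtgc
SEL1L: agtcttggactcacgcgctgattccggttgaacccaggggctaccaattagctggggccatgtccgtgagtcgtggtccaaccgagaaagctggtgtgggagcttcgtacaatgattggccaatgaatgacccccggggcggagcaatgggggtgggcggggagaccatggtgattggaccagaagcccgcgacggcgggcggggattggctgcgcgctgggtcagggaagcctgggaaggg
CREB3L2: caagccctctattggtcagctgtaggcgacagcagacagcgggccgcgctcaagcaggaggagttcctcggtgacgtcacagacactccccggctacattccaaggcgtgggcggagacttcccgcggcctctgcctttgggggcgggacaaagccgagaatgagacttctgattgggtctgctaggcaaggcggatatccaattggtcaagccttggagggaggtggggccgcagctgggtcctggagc

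The other matches of ERSE and ERSE-II are shown with their surroundings, to set the element of each gene beside its fold change. Capitals mark ERSE in CRELD2 (chr22:49918542-49918584, plus), CALR (chr19:12938372-12938414, plus), CANX (chr5:179698766-179698808, plus) and PDIA6 (chr2:10812845-10812883, minus), and ERSE-II in SDF2L1 (chr22:21642102-21642136, plus) and HYOU1 (chr11:119057262-119057402, minus), where the first of the 2 copies of ERSE-II overlaps a UPRE.
CRELD2: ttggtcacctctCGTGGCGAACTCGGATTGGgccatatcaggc
CALR: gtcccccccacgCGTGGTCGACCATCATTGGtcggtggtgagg
CANX: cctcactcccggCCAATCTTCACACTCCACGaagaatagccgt
PDIA6: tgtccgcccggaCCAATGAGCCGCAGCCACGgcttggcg
SDF2L1: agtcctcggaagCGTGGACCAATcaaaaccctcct
HYOU1: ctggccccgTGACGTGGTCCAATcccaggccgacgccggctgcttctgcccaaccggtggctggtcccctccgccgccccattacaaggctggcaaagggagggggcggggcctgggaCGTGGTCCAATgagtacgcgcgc
None of these 8 genes passed the threshold. The log2 fold changes of the ERSE genes were -0.24 (CRELD2), -0.20 (HSPA5), -0.12 (PDIA6), -0.05 (CANX) and 0.07 (CALR), and those of the ERSE-II genes -0.16 (SDF2L1), -0.01 (HYOU1) and 0.26 (HERPUD1). Genes with the same element thus lay on both sides of 0, and by up to 0.26 from it.

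Of the 10 chaperones and cochaperones none passed the threshold, 9 of the 10 had a log2 fold change below 0, and their median was -0.15. Of all 11276 genes tested, 5692 were below 0. Without LenR replicate 2, SDF2L1 (0.01), MANF (0.05) and PPIB (0.01) lay above 0, and the others of the 9 stayed below it. Among 15 further chaperones and cochaperones tested outside the 58, 11 were above 0 and 4 below, with a median of 0.15. The most abundant was MZB1, a plasma cell cochaperone of HSP90B1 that helps assemble immunoglobulin, at 633, 630 and 579 FPKM in WT and 756, 559 and 679 FPKM in LenR replicates 1 to 3. The groups overlapped, with the lowest and the highest value both in LenR (log2 fold change 0.10 with a 95% interval of -0.18 to 0.39, limma adjusted p = 0.651). HSPA5, the central ER HSP70 and the gene with the ERSE shown above, measured 221, 213 and 213 FPKM in WT against 180, 185 and 197 FPKM in LenR. Every LenR library was below every WT library, yet the difference (log2 fold change -0.20 with an SE of 0.07) did not pass the limma threshold (adjusted p = 0.12). CRELD2, an ER resident disulfide isomerase-like protein induced by ER stress, measured 32.7, 32.5 and 35.8 FPKM in WT and 29.4, 27.8 and 27.5 FPKM in LenR, again without overlap (log2 fold change -0.24, limma adjusted p = 0.0528). DNAJB11, a cochaperone of HSPA5, also had all 3 LenR libraries (97.6 to 109 FPKM) below all 3 WT libraries (115 to 117 FPKM), with a log2 fold change of -0.16 (limma adjusted p = 0.205). Libraries of the 2 groups did not overlap in 7 of the 58 genes on the higher side and in 5 on the lower side, where 18.0% and 16.5% of all genes tested showed the same, so neither count stands above the table.

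The other chaperones had overlapping groups. HYOU1, the nucleotide exchange factor for HSPA5, had means of 126 ± 7.68 (SD, n = 3) FPKM in WT and 126 ± 8.37 FPKM in LenR, a log2 fold change of -0.01. DNAJC3 (p58IPK), which assists HSPA5, and DNAJB9, which keeps IRE1 inactive, gave log2 fold changes of -0.09 and -0.18. SDF2L1, a stabilizer of HSPA5 substrates, MANF, a secreted UPR product, and the proline isomerase PPIB gave -0.16, -0.11 and -0.14, and 27.2% of the exon bases of PPIB overlap a gene of the other strand. For SDF2L1 and MANF the 95% intervals reached from -0.60 to 0.28 and from -0.50 to 0.28, so differences of that size in either direction stay within the error.

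Neither the lectin chaperones nor the disulfide isomerases passed the threshold in either direction. CALR (calreticulin), which holds glycoproteins until they fold, was the most abundant of the 58, at 631, 626 and 639 FPKM in WT and 655, 667 and 669 FPKM in LenR. Its LenR libraries all lay above its WT libraries, by a log2 fold change of 0.07 (limma adjusted p = 0.626). The membrane-bound partner CANX and the folding sensor UGGT1 gave -0.05 and 0.01. Among the isomerases, P4HB (PDI) was highest, at 460, 458 and 538 FPKM in WT and 485, 523 and 454 FPKM in LenR, with the groups fully interleaved (log2 fold change 0.01, 95% interval -0.23 to 0.25). PDIA3, PDIA4, PDIA6 (25.2% of its exon bases overlap a gene of the other strand) and TXNDC11 lay between -0.12 and 0.10.

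TXNDC5, a PDI family isomerase abundant in plasma cells, had the largest spread of the 58 genes. It measured 10.1, 12.1 and 17.8 FPKM in WT and 30.9, 28.0 and 8.43 FPKM in LenR, so that LenR replicates 1 and 2 stood above every WT library while LenR replicate 3 lay below all of them. The log2 fold change was 0.55 with an SE of 0.44 (limma adjusted p = 0.471). Without LenR replicate 3 it was 1.12 with an adjusted p of 0.0125. TXNDC5 passed in only 1 of 22 alternative fits, this one, and its adjusted p reached 0.843 in another. In the GENCODE 29 annotation 60.6% of its exon bases are shared with the readthrough transcript BLOC1S5-TXNDC5, so its reads could have been split or set aside by the counting, and its level is uncertain.

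At the translocon, none of 12 genes passed the threshold, and their median log2 fold change was -0.03, from -0.21 (SEC61B) to 0.13 (SEC62). SSR2, a subunit of the translocon-associated TRAP complex, was the most abundant, at 388, 380 and 368 FPKM in WT and 387, 357 and 404 FPKM in LenR. Its groups overlapped and its 95% interval, -0.18 to 0.21, was narrow. The channel subunit SEC61A1 had a log2 fold change of -0.04, and the TRAP subunits SSR1, SSR3 and SSR4 of 0.08, -0.03 and 0.00. The signal recognition particle proteins SRP9 and SRP14 gave -0.04 each, its receptor subunit SRPRB 0.08, and SEC63, which couples HSPA5 to the channel, -0.03.

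The small channel subunits SEC61B and SEC61G varied more between libraries than between groups. SEC61G measured 194, 208 and 133 FPKM in WT and 167, 106 and 211 FPKM in LenR. The low value of each group was in WT replicate 3 and LenR replicate 2, the libraries that stood apart. Over the 58 genes, 30 were lower in both of these libraries than the mean of the other 2 of their group, 20 were higher in both and 8 went opposite ways (37.6% and 38.7% of all genes tested were lower and higher in both). All 6 genes under 1000 bases (SEC61G, SEC61B, SEC11C, MZB1, SDF2L1 and MANF) were lower in both. Across the 58 genes the mean departure of the 2 libraries had a Pearson correlation of 0.46 with log2 gene length (0.33 over all genes) and of 0.35 with GC content (0.42). These are correlations across genes that share libraries, given as a description. Their part in the group differences was not tested.

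**Figure D3:**
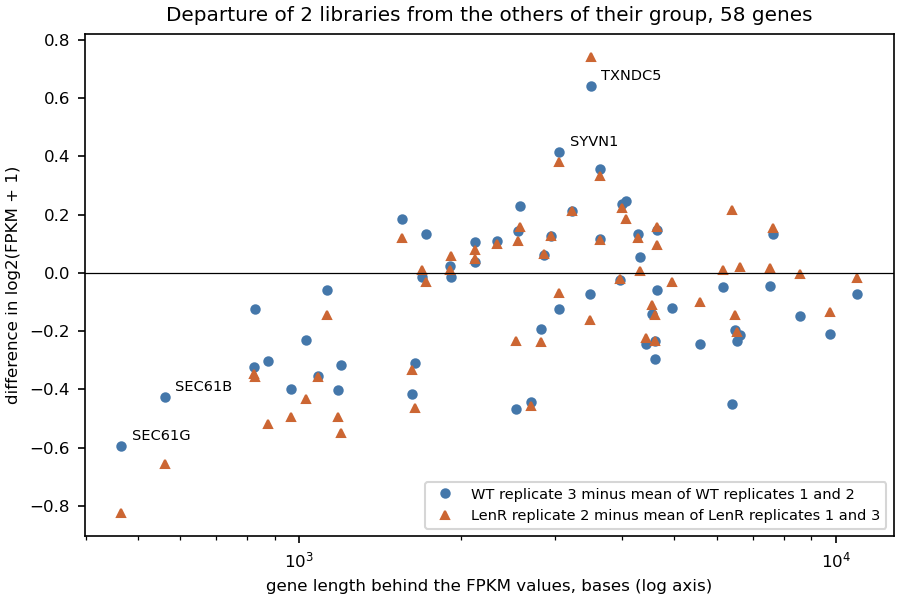
Departure of WT replicate 3 (circles) and LenR replicate 2 (triangles) from the mean of the other 2 libraries of their group, in log2(FPKM + 1), for the 58 genes against the gene length behind the FPKM values (log axis, bases). All 6 genes under 1000 bases lie below 0 in both libraries, and both symbols of TXNDC5 lie at the top.

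None of the 5 signal peptidase subunits and none of the 5 oligosaccharyltransferase subunits passed the threshold. SPCS1 was the most abundant peptidase subunit, at 286, 277 and 220 FPKM in WT and 259, 216 and 297 FPKM in LenR, with overlapping groups and a log2 fold change of -0.02. As 58.1% of its exon bases overlap genes of the other strand and the strand setting is not given in the sources used here, its level is uncertain. The other 4, SPCS2, SPCS3 and the catalytic SEC11A and SEC11C, lay between -0.12 and 0.06. Of the oligosaccharyltransferase, which attaches N-linked glycans, RPN1 was the most abundant subunit, at 221, 222 and 239 FPKM in WT and 220, 237 and 223 FPKM in LenR (log2 fold change 0.00, 95% interval -0.19 to 0.18). The catalytic subunit STT3A, which works with the translocon, measured 92.6, 95.3 and 97.7 FPKM in WT and 82.4, 85.6 and 88.2 FPKM in LenR. Its groups did not overlap, but its log2 fold change of -0.16 missed the limma threshold (adjusted p = 0.179). The alternative catalytic subunit STT3B lay on the other side of 0, at 0.06 (adjusted p = 0.663).

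ER-associated degradation held 1 of the 2 genes that rose. SEL1L, the adaptor that joins substrates to the ubiquitin ligase SYVN1 (HRD1), lies on chromosome 14 at 81471549 to 81533861 (GRCh38, minus strand). It measured 48.7, 48.8 and 43.9 FPKM in WT and 58.8, 61.1 and 64.0 FPKM in LenR. Every LenR library was above every WT library, and the mean was 30.1% higher (47.1 ± 2.79 against 61.3 ± 2.58 FPKM, SD, n = 3 each). The log2 fold change was 0.37 with an SE of 0.07, past the limma threshold (adjusted p = 0.0125). The other tested genes within 5 Mb of SEL1L, 17 in number, had a median log2 fold change of -0.04.

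HERPUD1, EDEM1 and EDEM3 were also above WT in all 3 LenR libraries but did not pass the threshold. HERPUD1, which recruits the degradation complex and was the most abundant gene of the group, measured 407, 402 and 401 FPKM in WT and 462, 498 and 496 FPKM in LenR (log2 fold change 0.26, limma adjusted p = 0.0642). EDEM3, a mannosidase that marks misfolded glycoproteins, measured 36.7, 36.2 and 31.3 FPKM in WT and 39.8, 42.2 and 43.6 FPKM in LenR (0.27, adjusted p = 0.0696). Its relative EDEM1 went from a mean of 67.7 ± 1.88 to 75.4 ± 1.81 FPKM (0.15, adjusted p = 0.168). The mean was 20.3% higher in HERPUD1, 20.7% in EDEM3 and 11.4% in EDEM1. The third family member, EDEM2, had a log2 fold change of -0.01 with a 95% interval of -0.15 to 0.14. SYVN1, the ligase that SEL1L serves, gave 0.02 with a wider interval (-0.34 to 0.37), with its high values in WT replicate 3 (99.8 FPKM) and LenR replicate 2 (99.4 FPKM). The lectin OS9 and the channel protein DERL2 gave -0.04 and -0.06. DERL3 was the lowest of the 58 (1.27 to 3.84 FPKM, at least 142 reads), and is uncertain because SMARCB1 covers most of its exon bases on the other strand.

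Of the 3 UPR sensors none passed the threshold. ERN1 (IRE1), the kinase and nuclease that splices XBP1 mRNA, measured 29.9, 29.6 and 35.3 FPKM in WT and 27.9, 30.5 and 24.1 FPKM in LenR. The groups overlapped through LenR replicate 2 (log2 fold change -0.20, limma adjusted p = 0.274). ATF6, cleaved in the Golgi to release a transcription factor, measured 18.9, 18.6 and 18.2 FPKM in WT and 18.7, 20.2 and 21.2 FPKM in LenR (0.10, adjusted p = 0.377). EIF2AK3 (PERK), the kinase that slows translation, measured 19.3, 20.02 and 18.9 FPKM in WT and 16.4, 18.5 and 18.1 FPKM in LenR. Its groups did not overlap, but the log2 fold change of -0.13 missed the threshold (adjusted p = 0.259). Sensor activity is set by oligomerization, phosphorylation, splicing and cleavage, which gene-level values do not show.

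CREB3L2, an ER membrane transcription factor cleaved like ATF6 that drives secretory pathway genes, had the highest log2 fold change of the 58 genes. It lies on chromosome 7 at 137874979 to 138002067 (GRCh38, minus strand). It measured 29.7, 30.1 and 32.8 FPKM in WT and 44.6, 49.5 and 44.3 FPKM in LenR. The LenR libraries lay well clear of the WT libraries, and the mean was 49.4% higher (30.9 ± 1.72 against 46.1 ± 2.97 FPKM, SD, n = 3 each; log2 fold change 0.56, SE 0.08, limma adjusted p = 0.00213). The median over its 33 tested neighbours within 5 Mb was 0.03. WFS1, an ER membrane protein that restrains ATF6, measured 16.4, 15.8 and 20.8 FPKM in WT and 24.0, 26.8 and 18.6 FPKM in LenR. LenR replicate 3 was below WT replicate 3, and the log2 fold change of 0.37 (SE 0.15) did not pass the threshold (adjusted p = 0.151). Without LenR replicate 3, WFS1 had a log2 fold change of 0.51 and an adjusted p of 0.0396, and with TXNDC5 it brought the number of genes that rose from 2 to 4. No other fit without 1 library had WFS1 past the threshold.

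In ER to Golgi traffic, KDELR1, a receptor that returns escaped chaperones to the ER, measured 174, 177 and 200 FPKM in WT and 222, 239 and 217 FPKM in LenR. All LenR libraries were higher, with a mean of 226 ± 11.4 against 184 ± 13.96 FPKM (SD, n = 3 each), but the log2 fold change of 0.30 stayed short of the limma threshold (adjusted p = 0.0563). Of the fits without 1 library, only that without WT replicate 3 had KDELR1 past the threshold (0.36, adjusted p = 0.0388). The COPII coat subunits SEC24D and SEC31A gave -0.10 and -0.04.

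**Figure D4:**
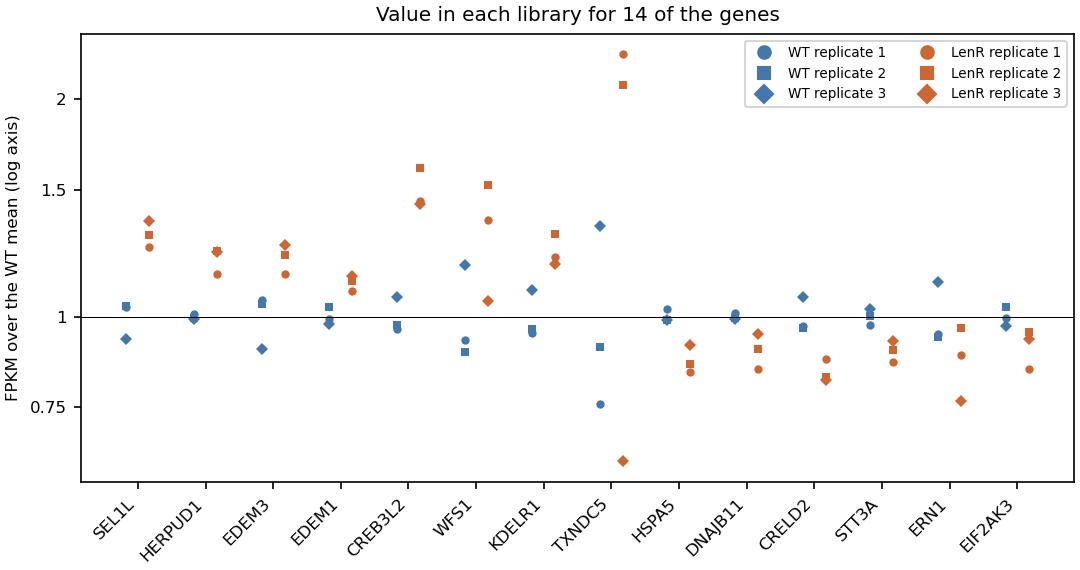
FPKM of 14 of the genes in each library, divided by the WT mean of the gene (log axis), with 1 symbol per replicate. In SEL1L, HERPUD1, EDEM3, EDEM1, CREB3L2 and KDELR1 all LenR symbols lie above all WT symbols, in HSPA5, DNAJB11, CRELD2, STT3A and EIF2AK3 all lie below, and WFS1, TXNDC5 and ERN1 overlap. The 14 hold most of the genes without overlap and do not stand for the 58. Of the 58, 7 were without overlap on the higher side and 5 on the lower, against 18.0% and 16.5% of all genes tested.

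When the limma fit was given an extra term shared by the libraries that stood apart (WT replicate 3, LenR replicate 2), which leaves the fold changes as they were and narrows their errors, 7 of the 58 genes passed as higher and 5 as lower, against 15.3% and 12.7% of all genes tested. The 7 were SEL1L, CREB3L2, HERPUD1 (adjusted p = 0.0058), EDEM1 (0.0457), EDEM3 (0.0193), WFS1 (0.0184) and KDELR1 (0.00191). The 5 were HSPA5 (0.0223), CRELD2 (0.0154), STT3A (0.0471), SEC61B (0.0454) and ERN1 (0.0489). The share of the 58 again lay below that of the table in each direction. The 2 libraries were picked from the second principal component of these same data, which tends to make the errors and adjusted p-values of this fit too small. Its values are given as a description. With the 2 libraries left out instead, 4 rose (SEL1L, CREB3L2, HERPUD1 and KDELR1) and none fell, with 2 libraries left in each group. Among all genes of that fit 1030 rose and 792 fell.

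A further 106 genes of the same pathways, chosen by role, were set beside the 58; 101 were matched in the table and 98 were tested. Of the 98, 9 rose and 7 fell, against the 8.57% and 6.57% of all genes given above. With WT replicate 3 and LenR replicate 2 left out, 10 rose and 8 fell, against 1030 and 792 of all genes in that fit. Among the 14 UPR transcription factors and effectors, 5 rose (XBP1, DDIT3, TRIB3, ATF3 and NFYB) and 1 fell (PPP1R15A). XBP1, the factor made active by IRE1 splicing and required for plasma cell secretion, measured 476, 487 and 485 FPKM in WT and 628, 627 and 602 FPKM in LenR. The groups lay far apart relative to their spread, at a log2 fold change of 0.36 with an SE of 0.08 (limma adjusted p = 0.0203). Spliced and unspliced XBP1 are not told apart by these values. The call was lost without WT replicate 1 (adjusted p = 0.121), WT replicate 2 (0.101), WT replicate 3 (0.0509) or LenR replicate 1 (0.0674), while the log2 fold change stayed between 0.35 and 0.36 in these fits. It was also lost with quantile normalization (log2 fold change 0.33, adjusted p = 0.0871) and with WT replicates 1 and 2 averaged (0.109).

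On the PERK arm, DDIT3 (CHOP), a transcription factor linked to cell death under ER stress, measured 6.53, 7.07 and 6.91 FPKM in WT and 11.5, 8.41 and 10.6 FPKM in LenR. It rose without overlap (log2 fold change 0.50, SE 0.11, limma adjusted p = 0.0166), but not past the threshold without WT replicate 1 (0.0669) or LenR replicate 1 (0.0657), nor with WT replicates 1 and 2 averaged (0.0543). Genes of the other strand overlap 31.6% of its exon bases. ATF3 and TRIB3, targets of ATF4 and DDIT3, rose by log2 fold changes of 0.38 (adjusted p = 0.0101) and 0.34 (adjusted p = 0.0467), and TRIB3 lost its call when replicate 1 or 2 of WT (0.16 and 0.166) or of LenR (0.163 and 0.106) was left out. The TRIB3 call was also lost with both libraries that stood apart left out (0.0593), with WT replicates 1 and 2 averaged (0.162), and with every library kept by median-ratio rescaling (0.0558), by an equal FPKM sum in each library (0.0746) or by a filter at a mean of 5 FPKM (0.0535). ATF4 itself measured 247, 234 and 241 FPKM in WT and 295, 278 and 280 FPKM in LenR, without overlap and short of the threshold (0.24, adjusted p = 0.0724). PPP1R15A (GADD34), which restores translation after PERK signalling, went the other way. It fell by 0.45 on the log2 scale (41.1 ± 2.05 to 29.7 ± 0.93 FPKM, SD, n = 3 each, limma adjusted p = 0.00327). ATF6B, the relative of ATF6, measured 1.63, 1.68 and 2.37 FPKM in WT and 1.56, 2.15 and 1.79 FPKM in LenR, with overlapping groups (-0.03, adjusted p = 0.921).

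Of the 3 other pathway genes that passed with the largest change in each direction, ERP29, NFYB, KDELR2, HERPUD2 and GET4 lay beside neighbours whose median differed in the same direction. The neighbours of DDIT3 had a median near 0 (0.035). ERP29, an ER chaperone of the thioredoxin fold family, measured 110, 114 and 101 FPKM in WT and 188, 154 and 196 FPKM in LenR, a log2 fold change of 0.72 (limma adjusted p = 0.00331). NFYB, a subunit of the NF-Y complex that binds the CCAAT part of ERSE, measured 11.3, 11.6 and 9.53 FPKM in WT and 17.4, 17.1 and 19.6 FPKM in LenR (0.69, adjusted p = 0.00188). Both groups were clear of each other in both genes. Both lie on chromosome 12, and the other tested genes within 5 Mb had medians of 0.57 (67 genes, 66 above 0) beside ERP29 and 0.35 (47 genes, 40 above 0) beside NFYB. HSP90B1 (GRP94), an ER HSP90 on the same chromosome, measured 494, 491 and 465 FPKM in WT and 548, 574 and 627 FPKM in LenR (0.27, adjusted p = 0.0889). Its 43 neighbours had a median of 0.34.

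KDELR2, a second retrieval receptor, measured 34.0, 32.2 and 32.7 FPKM in WT and 18.8, 18.2 and 20.2 FPKM in LenR. It fell by 0.76 on the log2 scale (limma adjusted p = 0.000326), and all 45 of its tested neighbours on chromosome 7 were below 0, with a median of -0.70. HERPUD2, a relative of HERPUD1, measured 8.66, 8.73 and 8.58 FPKM in WT and 5.00, 5.75 and 4.85 FPKM in LenR (-0.64, adjusted p = 0.000903; 22 neighbours, median -0.37). GET4, which helps insert tail-anchored proteins into the ER membrane, measured 19.8, 22.9 and 24.9 FPKM in WT and 13.9, 15.3 and 13.5 FPKM in LenR (-0.62, adjusted p = 0.00347; 28 neighbours, none above 0, median -0.74). For each of these 3 genes the LenR libraries lay below all WT libraries. GET4 shares 34.2% of its exon bases with another gene of its own strand and 48.1% with genes of the other strand, so its level is uncertain. SEL1L, CREB3L2, XBP1 and DDIT3, which rose, and PPP1R15A, which fell, had neighbours with medians between -0.04 and 0.04. What the neighbours contribute to these differences was not tested.

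**Figure D5:**
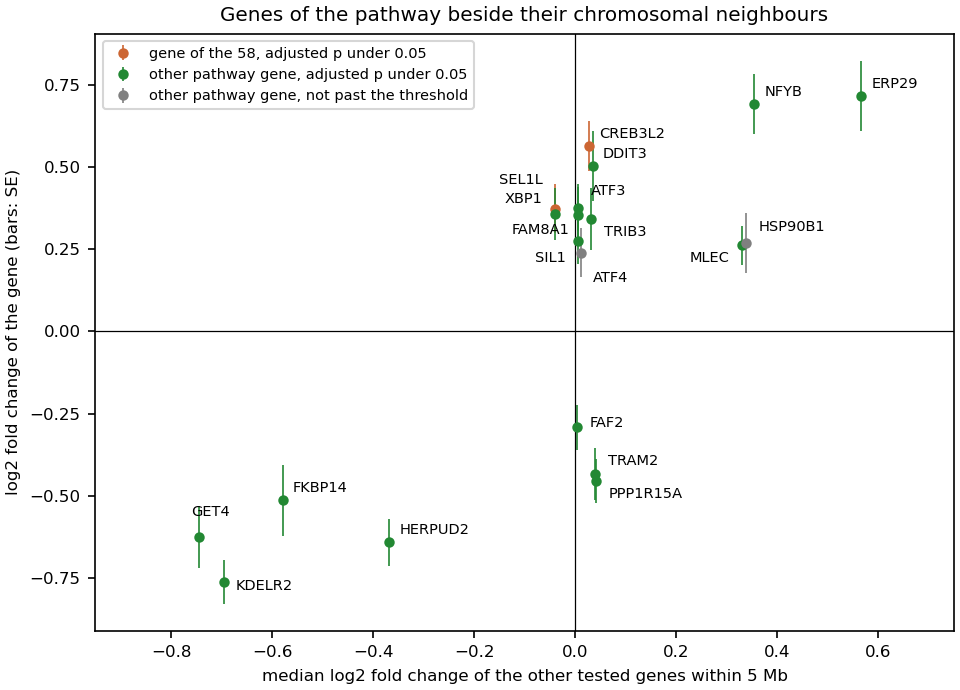
Log2 fold change (LenR minus WT, bars: SE from limma) of the genes past the threshold, with ATF4 and HSP90B1, against the median log2 fold change of the other tested genes within 5 Mb. KDELR2, GET4, FKBP14 and HERPUD2 sit with neighbours below 0, ERP29, NFYB, MLEC and HSP90B1 with neighbours above 0, and SEL1L, CREB3L2, XBP1 and DDIT3 with neighbours near 0.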

How the data were processed

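Total RNA of 6 MM.1S samples was sequenced. The authors deposited 1 table of FPKM values for 12760 genes, with the columns assigned to samples by the names in the labels. The submitters' processing notes name the build hg38 and, with no role or order, edgeR 3.40.2, featureCounts 2.0.3, HISAT2 2.2.1 and FastQC 0.11.9. Not given in the sources used here are the annotation, the strand setting and the filter for expressed genes. Reads per gene and the gene lengths were worked out from the FPKM steps: in 12760 of 12760 genes the result was whole to within 0.005 of a read, and the median gene had 511 reads in a library.

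Differences were tested with limma 3.58.1 (R 4.3.3) on log2(FPKM + 1) of the deposited values, with group as the only term, over 11276 genes whose mean reached 1 FPKM (1484 were below it). Empirical Bayes used a trend (3.75 prior degrees of freedom), and Benjamini-Hochberg adjustment of the two-sided p-values ran over all genes tested (threshold 0.05). A fold change on this scale understates that of low genes. The fit was also run on simulated libraries with independent noise for each gene and library. The departure shared by WT replicate 3 and LenR replicate 2 was not simulated, so its effect on the errors was not tested. Positions and exon overlaps came from GENCODE 29 (12035 names, 94.3%), and promoter windows from RefSeq GRCh38.p14. Figures were drawn with matplotlib 3.10.9.

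The 58 genes, the lists and the alternatives were chosen with earlier results of these data known. Genes named with library values were those of the 58 that passed, the 3 sensors, CREB3L2, WFS1, the most abundant gene of each role, XBP1, ATF4, DDIT3, HSP90B1, ATF6B, and the 3 other pathway genes that passed with the largest change in each direction. HSPA5, CRELD2, TXNDC5, SEC61G, STT3A and EDEM3, and the genes given with means or with fits that leave out libraries, were chosen after their values were seen.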

Additional observations from a re-analysis of the deposited data

How the results depend on the processing

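Across 22 alternatives, 1243 of 1275 values of the 58 genes kept their side of the threshold. CREB3L2 passed in each alternative run (adjusted p from 9.25e-05 to 0.024), and no gene that passed changed direction. In 28 genes that passed in neither fit, the sign of the log2 fold change differed in at least 1 alternative; the largest of these was 0.21 from 0. The number of the 58 that rose was 2 in the fit reported and 4 with empirical Bayes without the trend, with WT replicate 3 and LenR replicate 2 left out, with voom and with the length trend removed, 6 with the GC trend removed, and 7 with a term for the 2 libraries. The number that fell was 0, and 1 without a filter on low values, with quantile normalization, with voom and with the length trend removed (CRELD2 each time), 2 with the GC trend removed, and 5 with the term. Of the other pathway genes, 9 rose and 7 fell in the fit reported, 20 and 12 with the term, 14 rose with the GC trend removed, and 3 rose with WT replicates 1 and 2 averaged, which left the 58 at 2 and 0. Among all genes of each fit, 966 rose and 741 fell in the fit reported, and 1729 and 1434 with the term. The counts were 1264 and 1127 with the GC trend removed, and 1030 and 872 with the length trend removed. They were 969 and 781 with voom, 965 and 739 without the empirical Bayes trend, and 579 and 476 with WT replicates 1 and 2 averaged. The cause of these differences was not tested. Leaving out 1 library at a time gave 2 to 4 of the 58 higher (4 without LenR replicate 3), none lower, and 3 to 7 other pathway genes higher (3 without WT replicate 1 or LenR replicate 1, 5 without WT replicate 2) and 5 to 7 lower. Among all genes these fits called 554 to 911 higher and 453 to 681 lower. Over these fits the median log2 fold change of the 58 lay between -0.037 and 0.021. Replicate numbers are shared between the groups, but same-numbered libraries did not deviate together (r across genes 0.02, -0.56 and -0.68), and no library correlated best with its own number. With the replicate block, 1 of the 58 rose (SEL1L had an adjusted p of 0.109) and none fell, and 2 other pathway genes rose and 4 fell. Among all genes 496 rose and 411 fell in that fit. The test with edgeR was not run, because the deposited values are FPKM, and voom used median-ratio scaling in place of TMM. With 3 libraries a group the 95% interval of the 58 genes had a median reach of 0.21 on the log2 scale to either side, so smaller differences were not detectable in most of them. That interval is not adjusted for the number of genes tested. Larger differences among the 58 also fell short of the threshold, such as KDELR1 (0.30, limma adjusted p = 0.0563).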

Other observations

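Of the other pathway genes, 6 that passed the limma threshold are not described above. SIL1, which exchanges nucleotides on HSPA5, rose from 24.4 ± 1.36 to 29.7 ± 1.48 FPKM (SD, n = 3 each; log2 fold change 0.28, limma adjusted p = 0.0384), but passed in none of the fits that left out 1 library (adjusted p from 0.0566 to 0.131), nor with WT replicate 3 and LenR replicate 2 both left out (0.0653), with WT replicates 1 and 2 averaged (0.102) or with the GC trend removed (0.0745). MLEC, a lectin for early glycan forms on chromosome 12, rose by 0.26 (adjusted p = 0.024) beside 78 neighbours with a median of 0.33. FAM8A1, a cofactor of the SYVN1 ligase, rose by 0.35 (adjusted p = 0.03). FAF2, which recruits the extracting ATPase to degradation substrates, fell by 0.29 (adjusted p = 0.0257). Each of these 3 lost its call in at least 4 of the 6 fits without 1 library: MLEC without replicate 1 or 2 of either group (0.0524 to 0.134), FAM8A1 without replicate 1 or 3 of either group (0.0603 to 0.105), and FAF2 with any library but LenR replicate 2 left out (0.0636 to 0.107). With WT replicates 1 and 2 averaged, none of the 3 passed (MLEC 0.122, FAM8A1 0.057, FAF2 0.0801), nor did MLEC (0.0571) and FAF2 (0.067) after rescaling to the same FPKM total. TRAM2, a translocation-associated membrane protein, fell from 129.5 ± 6.63 to 95.7 ± 5.88 FPKM (by 0.43 on the log2 scale, adjusted p = 0.00867), and its 20 tested neighbours had a median of 0.04. The proline isomerase FKBP14 fell by 0.51 (adjusted p = 0.0161) beside 30 chromosome 7 neighbours, none above 0, with a median of -0.58. Its call was lost when replicate 1 of either group or WT replicate 2 was left out (0.0517 to 0.062) and with WT replicates 1 and 2 averaged (0.0512).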
